A study of Homo sapiens with 5 samples.

Results

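Footprint counts of ATF4 pathway genes were examined in HAP1 cells: 5 transcription factors (ATF4, ATF5, ATF3, DDIT3 and CEBPB) and 5 stress effectors (TRIB3, CHAC1, SESN2, DDIT4 and VLDLR). The genes were chosen by symbol for their place in the pathway. Of the 10, 8 had a row among the 13638 rows of the table, and all 8 passed the filter on low counts that left 11205 rows for testing. ATF4 and CHAC1 had no row and were not analysed here, so every statement below is about the other 8. HAP1 is an adherent human line with close to a single set of chromosomes, derived from a chronic myeloid leukaemia line. One group held 2 wild-type libraries and the other 3 libraries labelled as ZCCHC4 knockout. ZCCHC4 is the methyltransferase that the series title names as the writer of N6-methyladenosine on 28S ribosomal RNA. No drug or stress treatment is given in the labels for either group, and the labels do not say how many knockout clones or separate cultures there were. P-values therefore reflect only how these libraries vary, and that variation may be technical.

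ATF4 is the central transcription factor of the integrated stress response. When amino acids run short, proteins misfold in the endoplasmic reticulum or haem is scarce, kinases phosphorylate the initiation factor eIF2, and most translation slows. The mRNAs of ATF4, ATF5 and DDIT3 carry short reading frames ahead of the coding sequence, and their coding sequences are translated better when eIF2 is phosphorylated. ATF4 then pairs with other leucine zipper proteins, such as members of the C/EBP family, and activates genes of amino acid supply, feedback and cell death. Footprints are the mRNA fragments left inside ribosomes after nuclease treatment. Their count for a gene follows both mRNA level and ribosome density, and these were not separated here. Fewer cells of a kind and less RNA per cell cannot be told apart in such bulk lysates either.

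The start codons of these transcripts are shown first, because a single count per transcript can hold footprints of the upstream reading frames too. Among the 8 transcripts of the table, 5 had at least 1 AUG in the leader, the stretch before the coding sequence, and 3 (CEBPB, DDIT4 and VLDLR) had none. In all tested transcripts with a leader, 51.4% had at least 1 upstream AUG and 28.9% at least 2. ATF5, ATF3 and DDIT3 each had an upstream frame that runs past the start of the coding sequence in another frame, a feature of 16.4% of those transcripts. Each line gives 6 bases before the start codon, the codon in capitals and 4 bases after it, 5′ to 3′, from GENCODE release 29 on GRCh38.
ATF5 first upstream start: ccggccATGgctc
ATF5 overlapping upstream start: gcagccATGgagt
ATF5 coding start: acagccATGtcac
DDIT3 first upstream start: cgtatcATGttaa
DDIT3 overlapping upstream start: aagcagATGtgct
DDIT3 coding start: gcagagATGgcag
The first upstream frame of ATF5 has 3 codons before its stop, and the whole frame, with start and stop in capitals, is:
ATF5 first upstream frame: ATGgctctgTAG
The overlapping frame of ATF5 starts 124 bases before the coding start and has 59 codons. In DDIT3 the first upstream frame has 34 codons and is closed within the leader. ATF3 had 5 upstream AUGs, TRIB3 and DDIT3 had 3 each, ATF5 had 2 and SESN2 had 1. The table does not give positions along a transcript, so the footprints on these upstream frames were not analysed here.

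Total counts were between 4887380 and 5302160 in wild type and between 16940732 and 31557573 in the knockout, so depth moved with genotype. Levels are given as CPM, counts scaled to a common library size with TMM factors. A single count equalled 0.172 and 0.187 CPM in wild type, and no more than 0.0619 CPM in any knockout library. Over genes with at least 20 counts in a pair, the wild-type libraries differed by a chi-square of 1.14 per degree of freedom, close to sampling noise, and knockout replicates 1 and 3 by 2.97. Knockout replicate 2 stood apart from both, at 27.7 and 24.6. At greater depth the same relative difference gives a larger value, so the knockout pairs cannot be set directly against the wild-type pair. ZCCHC4 itself was at 14.6 ± 1.97 CPM in wild type and 4.08 ± 0.810 CPM in the knockout libraries (SD, n = 2 and n = 3), so it was lower but still detected. BCR and ABL1, which are fused in the parent leukaemia, were at 6.83 and 1.15 CPM in wild type, and counts cannot show the fusion. Of 11 markers of blood cells, 6 had a row. CD34 and CD33 had at most 2 counts in any library, while KIT (log2 fold change -2.80) and TAL1 (-0.66) fell and GATA2 (0.95) rose. The summed level of the 6 was 35.7 to 37.3 CPM in wild type and 36.3 to 40.5 CPM in the knockout. Of 8 markers of adherent cells, 7 had a row, with sums of 574 to 578 and 854 to 914 CPM. VIM went from 132 to 511 CPM by group means and FN1 from 164 to 68.6 CPM (log2 fold changes 1.95 and -1.26), EPCAM rose by 1.82 on the log2 scale, KRT18 did not pass, and CDH1 had 1 count in all. Among the 5 of these that were tested, 3 rose, VIM and EPCAM included, 1 fell (FN1) and 1 did not pass. Without VIM, left out after its values were seen, the sum was 438 to 451 CPM in wild type and 354 to 382 CPM in the knockout. That sum still holds FN1, the only fall. The part of these markers in the results below was not tested.

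Of all tested genes, 60.0% passed the quasi-likelihood test of edgeR (adjusted p under 0.05 after Benjamini-Hochberg), with 29.8% lower and 30.2% higher in the knockout. The genotypes' libraries did not overlap for 76.4% of tested genes. Against that background, 6 of the 8 genes fell, 1 rose and 1 did not pass, and the libraries did not overlap for 7. All 4 transcription factors measured were among the falls. The median log2 fold change, knockout over wild type, was -1.06 for the 8 genes and 0.02 for all tested genes. Scaling by library totals moved the median of all genes by -0.22 to -0.20 and raised the share of falls among all calls from 49.7% to 65.6%. With that scaling the 8 genes still split into 6 falls and 1 rise, with a median of -1.28. With every library thinned to the smallest total the split was also 6 and 1, with a median of -1.13.

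**Figure D1:**
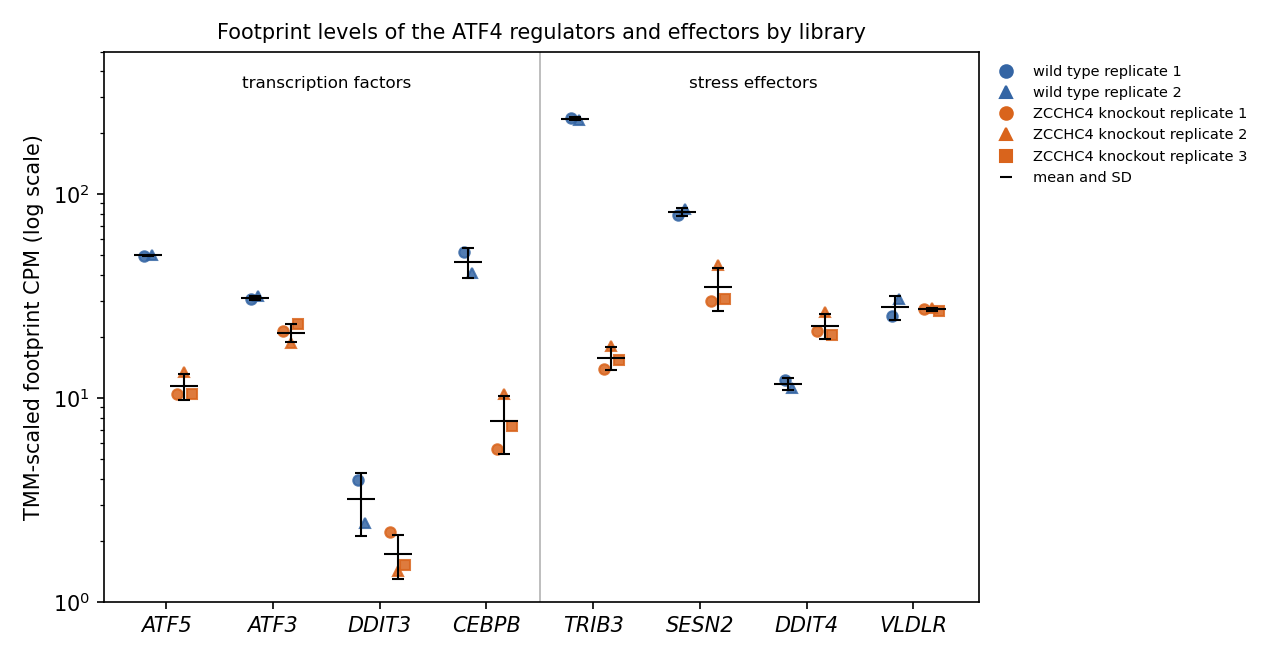
TMM-scaled footprint CPM on a log axis for each of the 8 genes, with 1 point per library and the mean and SD of each genotype. TRIB3 shows the widest gap between the genotypes, DDIT4 is the gene with all knockout points above the wild-type points, and the VLDLR points overlap.

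CEBPB encodes a C/EBP family factor that ATF4 can pair with and that acts in differentiation and stress. Its levels were 52.1 and 41.1 CPM in wild type and 5.61, 10.4 and 7.25 CPM in the knockout libraries. Every knockout library lay below both wild-type libraries, and the 6 ratios of a knockout to a wild-type library ran from 0.108 to 0.253. CEBPB fell 6.01-fold by group means, with a log2 fold change of -2.62 ± 0.22 (SE, adjusted p = 1.54e-05 by edgeR). That was lower than the value of all but 3.42% of tested genes. Knockout replicate 2 was the highest of its group for this gene, and without it the value was -2.86.

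ATF5 is the closest relative of ATF4 in this set and also activates stress genes, among them those of the mitochondrial unfolded protein response. It was at 49.9 and 50.4 CPM in wild type and at 10.4, 13.4 and 10.5 CPM in the knockout libraries. The wild-type libraries were nearly equal and far above all knockout libraries. ATF5 fell to 22.8% of its wild-type level, a log2 fold change of -2.14 ± 0.13 (SE, edgeR adjusted p = 2.69e-06).

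ATF3, a stress-induced factor that acts mostly as a repressor and that ATF4 activates, fell by less. Its levels were 30.5 and 31.6 CPM in wild type and 21.2, 18.6 and 23.0 CPM in the knockout libraries. The genotypes did not overlap, but the knockout kept 67.5% of the wild-type level. ATF3 fell by 0.56 ± 0.13 on the log2 scale (SE, edgeR adjusted p = 0.00402), and 23.9% of tested genes had a lower value. The count belongs to the transcript that begins at the upstream promoter of ATF3 (ENST00000366987, GRCh38 chromosome 1, 212565334 to 212620772), and which other ATF3 transcripts were counted into it is not given in the sources used here.

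DDIT3 encodes CHOP, a C/EBP family protein that pairs with ATF4 and promotes death under lasting stress. It was the least abundant of the 8 genes, with 23 and 13 raw counts in the wild-type libraries, against 60, 23 and 45 in those of the knockout. These were 3.97 and 2.43 CPM against 2.20, 1.42 and 1.52 CPM, so the highest knockout library lay just under the lower wild-type library. The log2 fold change was -0.88 ± 0.34 (SE), with a 95% interval from -1.66 to -0.11 and an edgeR adjusted p of 0.0494. The call was lost without wild-type replicate 1 (log2 fold change -0.48, adjusted p = 0.468), without wild-type replicate 2 (-1.19, 0.0562) and without knockout replicate 3 (-0.79, 0.0923), and by DESeq2 (adjusted p = 0.0763).

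TRIB3, a pseudokinase that ATF4 and DDIT3 induce and that feeds back on ATF4, had the lowest fold change of the 8 genes. It was the most abundant gene of the set in wild type, at 237 and 232 CPM, and was at 13.9, 18.0 and 15.3 CPM in the knockout libraries. The 6 ratios between libraries of the genotypes ran from 0.0589 to 0.0775, so every pairing of libraries gave a similar size. TRIB3 fell 14.9-fold by group means, with a log2 fold change of -3.90 ± 0.11 (SE, edgeR adjusted p = 4.27e-08). It held 48.3% and 48.0% of the summed CPM of the 8 genes in wild type and 10.6% to 11.3% in the knockout. Without TRIB3 the sum of the other 7 still went from 253 and 252 CPM to between 118 and 143 CPM.

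SESN2 is a sestrin, which restrains the growth kinase complex mTORC1 when leucine is low and supports antioxidant defence. Its levels were 79.3 and 84.6 CPM in wild type and 29.9, 44.8 and 30.7 CPM in the knockout libraries. All knockout libraries were lower, and replicate 2 stood above the other two. SESN2 fell to 42.9% of its wild-type level, a log2 fold change of -1.23 ± 0.17 (SE, edgeR adjusted p = 2.36e-04), and without knockout replicate 2 the value was -1.43.

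DDIT4, which encodes REDD1, another brake on mTORC1 that is induced by hypoxia, glucocorticoids and ATF4, rose. It was at 12.2 and 11.2 CPM in wild type and at 21.2, 26.4 and 20.4 CPM in the knockout libraries. Each knockout library was at least 1.66 and at most 2.36 times a wild-type library. The log2 fold change was 0.94 ± 0.17 (SE, edgeR adjusted p = 0.00117), above the value of 88.1% of tested genes, and it was 0.72 with library totals. SESN2 and DDIT4, which both restrain mTORC1, thus differed in direction.

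VLDLR, the very low density lipoprotein receptor, which binds reelin and lipoproteins and is an ATF4 target in endoplasmic reticulum stress, did not pass the test. It was at 25.2 and 30.4 CPM in wild type and at 27.2, 27.7 and 26.7 CPM in the knockout libraries. On this TMM scale the knockout values lay between the wild-type values, but with library totals they did not. The log2 fold change was -0.03 ± 0.12 (SE, edgeR adjusted p = 0.839), and its 95% interval, from -0.29 to 0.23, does not contain a change as large as that of the other 7 genes as estimated.

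**Figure D2:**
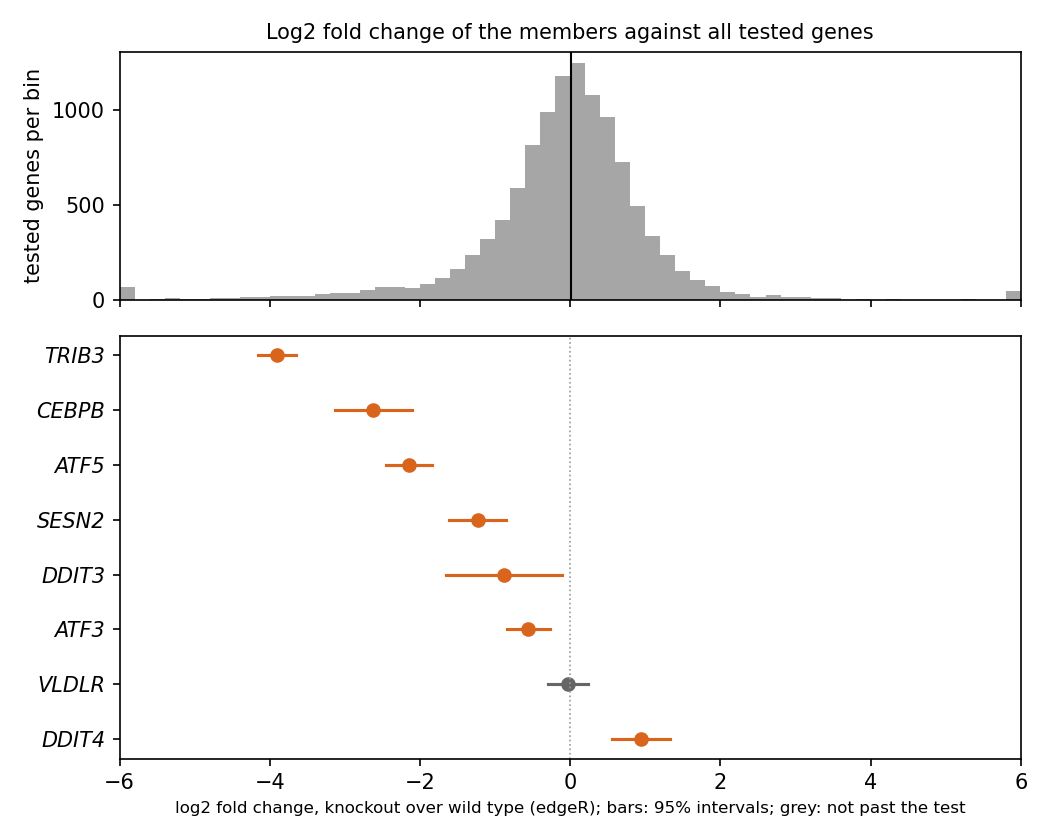
Upper panel, the number of tested genes by log2 fold change (knockout over wild type), with values beyond 6 in the end bins and the median marked. Lower panel, the log2 fold change of each of the 8 genes with its 95% interval from edgeR, where TRIB3 at -3.90 lies in the left tail of the upper panel and VLDLR at -0.03 near its middle.

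The levels were also compared between genes as CPM per kilobase of coding sequence, since longer coding sequences yield more footprints. In wild type, TRIB3 led at 218 ± 3.15 CPM per kb (SD, n = 2). ATF5 (59.3 ± 0.466), ATF3 (57.2 ± 1.33) and SESN2 (56.9 ± 2.57) followed, and ATF3 and SESN2 were not separated beyond their spread. CEBPB was at 45.0 ± 7.53 CPM per kb. DDIT4 (16.8 ± 1.06), VLDLR (10.6 ± 1.42) and DDIT3 (6.31 ± 2.15) were the lowest in wild type.

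In the knockout the order changed. ATF3 led at 38.6 ± 4.12 CPM per kb (SD, n = 3), followed by DDIT4 (32.5 ± 4.69) and SESN2 (24.4 ± 5.82), neighbours whose libraries overlapped in each case. TRIB3 (14.7 ± 1.91) and ATF5 (13.5 ± 2.04) came next and also overlapped. Within each single knockout library, though, DDIT4 was above SESN2 and TRIB3 above ATF5, while ATF3 was below DDIT4 in replicate 2. VLDLR (10.4 ± 0.185) and CEBPB (7.49 ± 2.36) followed, with knockout replicate 2 of CEBPB at 10.1 CPM per kb, just under the lowest VLDLR library at 10.2. DDIT3 remained last at 3.38 ± 0.832. TRIB3 thus went from above 92.7% of tested genes in wild type to above 48.2% in the knockout on this per-length scale, and DDIT4 from above 51.8% to above 65.5%.

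**Figure D3:**
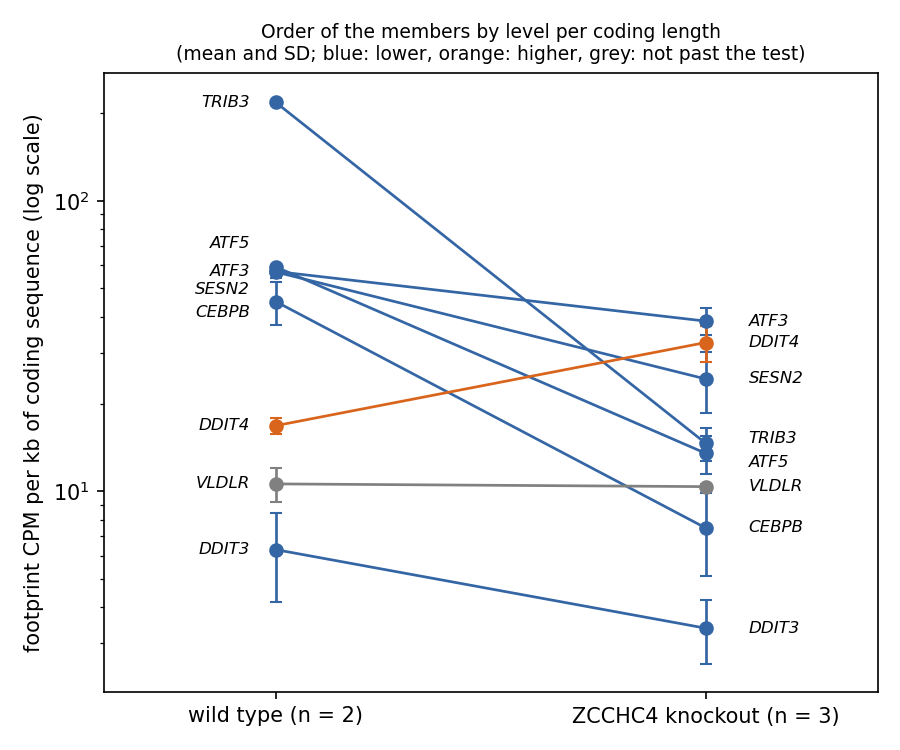
Mean and SD of footprint CPM per kb of coding sequence on a log axis, wild type on the left and knockout on the right, with 1 line per gene. TRIB3 leads in wild type at 218 and falls behind ATF3, DDIT4 and SESN2 in the knockout at 14.7, while DDIT4 goes from 16.8 to 32.5.

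Several of the 8 genes share their locus with other annotated genes. In GENCODE 29 an opposite-strand gene overlaps ATF5 (NUP62 and IL4I1), DDIT3 (MARS and MBD6), CEBPB (CEBPB-AS1), DDIT4 (DDIT4-AS1) and VLDLR (VLDLR-AS1). Whether the counting used strand is not given in the sources used here, so reads from such partners cannot be told apart from reads of these genes. On the same strand, the protein-coding AC022506.1 and the microRNA gene MIR616 overlap DDIT3, and MIR4751 overlaps ATF5. Strand would not separate those.

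Promoter sequence is shown for SESN2 and DDIT3, which fell, and DDIT4, which rose. These 3 were taken because their RefSeq start sites lie within 10 bases of the start of the counted transcript. Each is a stretch of 150 bases on GRCh38.p14 that ends before both the RefSeq start and the start of the counted transcript, on the strand of the gene, 5′ to 3′. Capitals mark the pentamer CCAAT or its reverse complement ATTGG, and, in DDIT4, also ACGTG.
SESN2, plus strand, chr1:28259368-28259517: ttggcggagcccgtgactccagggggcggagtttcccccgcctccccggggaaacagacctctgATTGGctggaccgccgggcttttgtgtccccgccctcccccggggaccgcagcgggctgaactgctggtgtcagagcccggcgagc
DDIT3, minus strand, chr12:57520518-57520667: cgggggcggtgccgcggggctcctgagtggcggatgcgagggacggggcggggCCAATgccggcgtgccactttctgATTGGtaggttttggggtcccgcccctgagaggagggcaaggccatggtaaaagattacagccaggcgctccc
DDIT4, plus strand, chr10:72273770-72273919: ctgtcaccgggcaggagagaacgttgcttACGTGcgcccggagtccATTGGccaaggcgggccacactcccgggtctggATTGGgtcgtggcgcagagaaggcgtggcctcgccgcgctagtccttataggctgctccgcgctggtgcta
CCAAT, the box bound by NF-Y, was present on either strand in all 3 stretches, and in 32.0% of the 35116 RefSeq windows of 250 bases before a start site. ACGTG, the core of hypoxia response elements, was present in 18.5% of them. The letters TGATGNAA, the core of the element that ATF4 and C/EBP proteins bind together, searched on both strands, were in 3.14% of windows. Among the windows nearest to the counted transcripts they were found in that of ATF3, as TGATGGAA, 191 to 184 bases before the RefSeq start. The RefSeq starts of TRIB3 lie 678 to 726 bases inside the counted transcript, so its window says nothing about that promoter. A match is a description of letters and not a bound site.

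The paralogs of the effectors give a comparison within each gene family. Among 7 tested paralogs there were 1 fall and 3 rises (median log2 fold change 0.21). These calls are 57.1% of the list, close to the 60.0% of all tested genes. DDIT4L, among the rises, had 0 counts in both wild-type libraries. It passed the filter through the knockout libraries only, so a rise was its only possible outcome. TRIB1, TRIB2 and LRP8, named after their values were seen, did not pass. Of the tribbles pseudokinases, TRIB1 was at 6.66 ± 0.880 CPM in wild type and 6.58 ± 0.838 CPM in knockout cells, and TRIB2 at 4.42 ± 0.881 and 5.11 ± 0.765 (SD, n = 2 and n = 3). Neither passed the test, with edgeR adjusted p of 0.926 and 0.495 and 95% intervals of the log2 fold change from -0.49 to 0.44 and from -0.36 to 0.77. The interval of TRIB3, from -4.15 to -3.66, overlaps neither.

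The sestrins went in both directions. SESN1, a sestrin induced by p53, fell from 79.6 ± 0.650 to 50.8 ± 2.21 CPM (log2 fold change -0.65 ± 0.09, edgeR adjusted p = 2.11e-04). SESN3, which is under FOXO control and was picked for mention from its values, rose from 18.0 ± 0.629 to 33.4 ± 3.25 CPM (0.90 ± 0.13, adjusted p = 3.55e-04).

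CHAC2, the sister of the glutathione-degrading enzyme CHAC1, rose. It was at 12.1 and 11.9 CPM in wild type and at 41.2, 39.6 and 39.2 CPM in the knockout libraries, a log2 fold change of 1.74 ± 0.12 (SE, edgeR adjusted p = 3.98e-06). For DDIT4L, the paralog of DDIT4, both wild-type libraries had 0 counts, and the knockout libraries had 256, 145 and 257. Taking 3 counts for both wild-type libraries together as the limit, it was at least 33.5-fold higher, and the exact binomial 95% interval of the ratio began at 27.2-fold. Both cover counting error only.

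LRP8, the other reelin receptor, was at 17.8 and 14.2 CPM in wild type and at 13.2, 15.4 and 14.4 CPM in the knockout libraries, which overlap. Of 5 tested partners of VLDLR, LRP8 included, 2 fell and 3 did not pass. These calls are 40.0% of the list, under the 60.0% of all tested genes. Without a filter, or with the replicate block, there was also 1 rise. Without wild-type replicate 2 the falls numbered 1, without knockout replicate 3 there was also 1 rise, and with similar libraries summed (both wild-type libraries as 1 sample, knockout replicates 1 and 3 as another) both falls lost their call. The falls were its ligand RELN (-0.52) and MYLIP (-0.67), the ubiquitin ligase that degrades lipoprotein receptors.

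**Figure D4:**
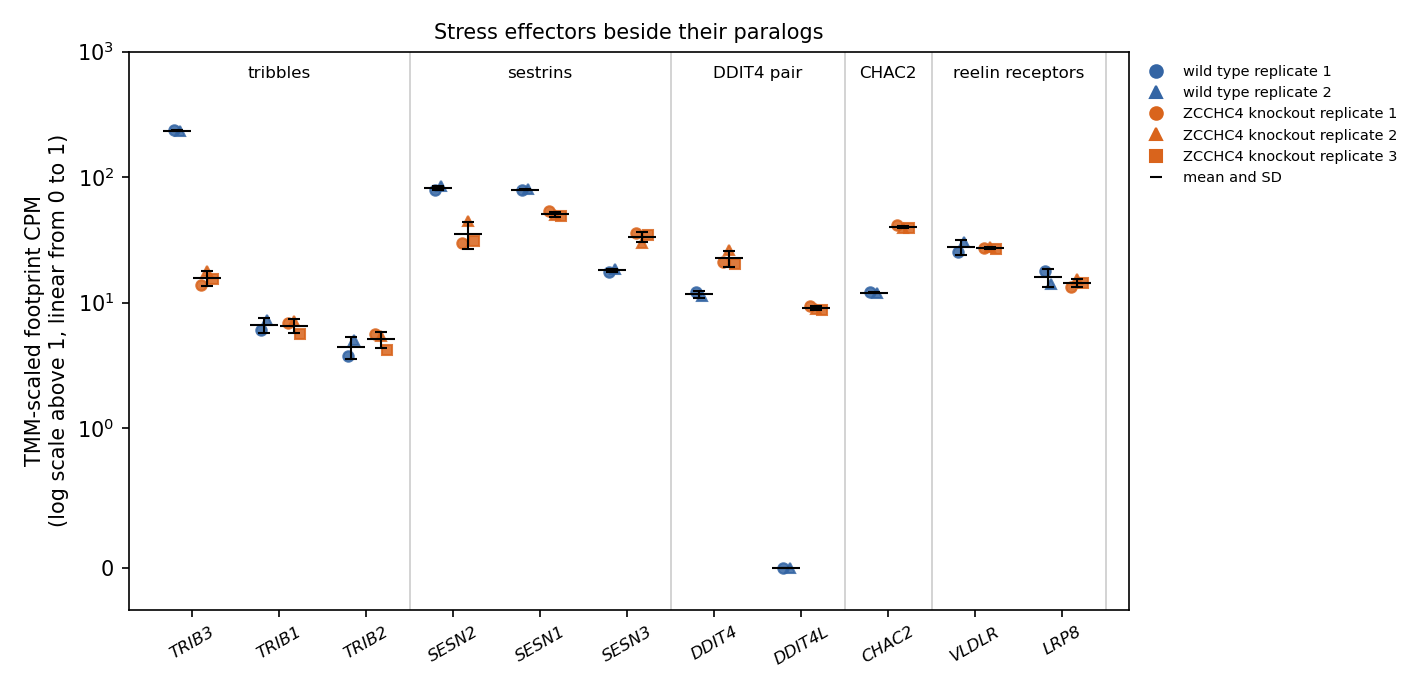
TMM-scaled footprint CPM by library, with mean and SD, for each effector beside its paralogs, on an axis that is logarithmic above 1 and linear from 0 to 1. TRIB3 drops while TRIB1 and TRIB2 overlap between genotypes, and DDIT4L is at 0 in both wild-type libraries and between 8.70 and 9.38 CPM in the knockout.

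The rest of the pathway was read from lists of genes by their role, and each count stands against the 29.8% lower and 30.2% higher of all tested genes. Among 20 tested ATF4 targets of amino acid supply there were 15 falls and 3 rises, and the median log2 fold change was -0.74. Without either wild-type library, or with library totals, 1 rise was left. The asparagine synthetase gene ASNS (-2.11 ± 0.06) and the cystine transporter gene SLC7A11 (-1.91 ± 0.08) had the smallest adjusted p among the falls. Among the rises were ALDH18A1, the first enzyme of proline synthesis (0.47 ± 0.08), and SLC3A2, the heavy chain shared by several amino acid transporters (0.41 ± 0.09). TRIB3, at -3.90, was lower than every gene of this list.

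Among 14 further tested stress-induced targets of ATF4 or DDIT3 there were 8 falls and 2 rises (median -0.54). The rises numbered 4 without knockout replicate 2, and 1 without either wild-type library, with upper quartile or total scaling, with genes under a mean count of 50 dropped, or with similar libraries summed. The stress cytokine GDF15 (-4.25 ± 0.16) and the death receptor TNFRSF10B (-1.66 ± 0.07) fell. The secreted glycoprotein gene STC2 (0.73 ± 0.13) and SQSTM1, the autophagy receptor p62 (0.36 ± 0.11), rose. GDF15 and TNFRSF10B are also known targets of p53.

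The family to which ATF4 and the 4 regulators belong, the leucine zipper factors, had 37 other tested genes, with 23 falls, 4 rises and a median of -1.09. The rises numbered 1 and 0 without wild-type replicates 1 and 2, 2 without knockout replicate 3 or with the replicate block, 0 with library totals or thinned libraries, and 1 with similar libraries summed. The AP-1 subunit FOSL1 (-2.53 ± 0.09) and MAF (-4.61 ± 0.21) had the smallest adjusted p. NFIL3 (0.54 ± 0.13) and CREB1 (0.47 ± 0.13) rose, the latter a factor that mediates cyclic AMP signals. CEBPG, a partner of ATF4 on amino acid genes that was picked from its values, fell from 147 ± 9.38 to 47.9 ± 6.48 CPM (-1.62 ± 0.12, edgeR adjusted p = 6.39e-06). The 4 regulators had a median of -1.51.

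Above ATF4 stand eIF2, its exchange factor, its kinases and phosphatase subunits and related factors. Their 17 tested genes held 3 falls and 4 rises, both shares under the 29.8% and 30.2% of all genes, and the median was 0.01. The balance turned with scaling, to 8 falls and 1 rise with library totals. The rises numbered 2 with the replicate block, 1 without either wild-type library and 0 with similar libraries summed. PPP1R15A, the ATF4-induced GADD34 that reverses eIF2 phosphorylation, fell from 4.50 ± 0.505 to 1.89 ± 0.144 CPM (-1.26 ± 0.24, edgeR adjusted p = 0.00159). PPP1R15A is also counted among the falls of the stress-induced targets above. EIF2D, a factor of non-canonical initiation, fell by 0.52 ± 0.09. The eIF2 subunit genes EIF2S3 and EIF2S1 rose by 0.40 and 0.30. The eIF2 kinase genes EIF2AK1, EIF2AK3 and EIF2AK4, picked after their values were seen, did not pass, at 0.11, 0.29 and -0.09, and footprints do not show whether a kinase is active.

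The other branches of the unfolded protein response had members in both directions, with 9 falls and 5 rises among 20 tested genes and a median of -0.30. The 14 calls are 70.0% of the list, beside 60.0% of all tested genes. XBP1 and ATF6, both among these falls, are also counted among the falls of the other leucine zipper factors. SEL1L (-1.56 ± 0.07) and HERPUD1 (-1.87 ± 0.10), of the degradation machinery of the endoplasmic reticulum, fell. The chaperone genes PDIA4 (0.91 ± 0.06) and CALR (0.84 ± 0.06) rose. Of 10 tested genes of the pathway that SESN2 and DDIT4 act through to restrain mTORC1, 4 fell and 1 rose, with a median of -0.11. The 5 calls are 50.0% of the list, under the 60.0% of all tested genes. WDR59 (-0.86 ± 0.13), a subunit of the complex that SESN2 binds, and TSC2 (-0.79 ± 0.14), through which DDIT4 acts, fell. TSC1, the partner of TSC2, rose from 5.27 ± 0.847 to 18.6 ± 1.48 CPM (1.82 ± 0.18, edgeR adjusted p = 3.27e-05).

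**Figure D5:**
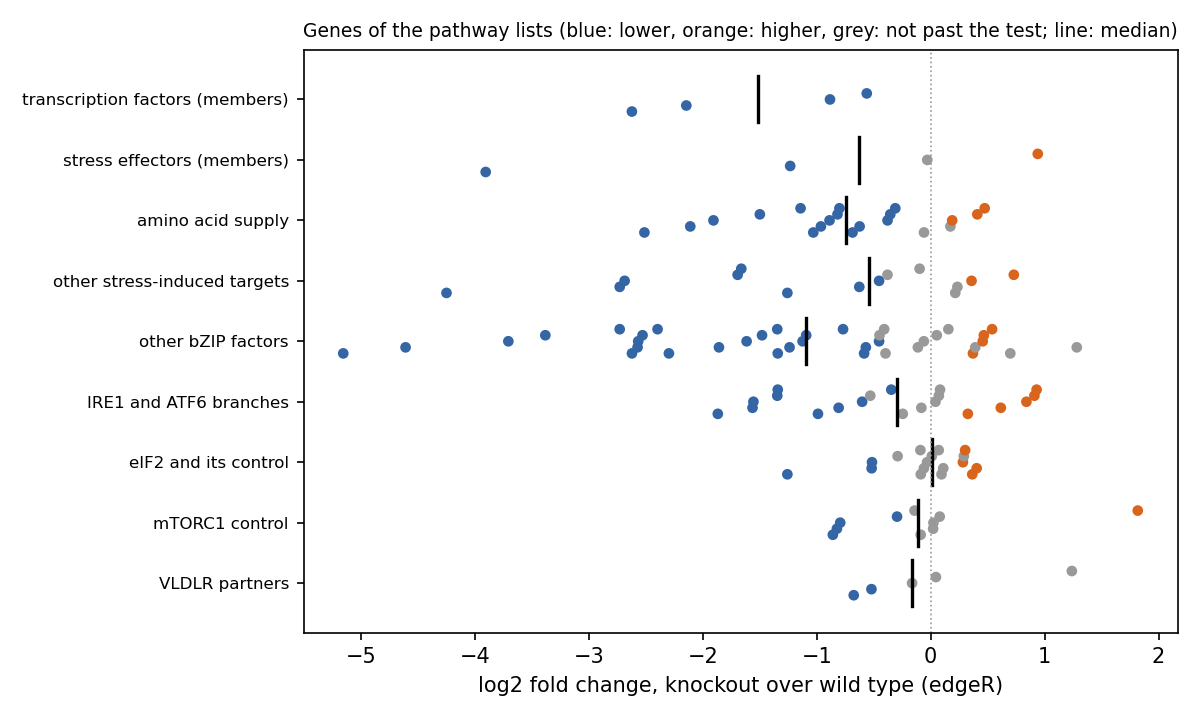
Log2 fold change of every tested gene in each list, with blue for genes that fell, orange for genes that rose, grey for those that did not pass, and a black line at the list's median. The 4 transcription factors all lie left of 0, while eIF2 and its control are centred at 0.01.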

How the data were processed

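Ribosome-protected fragments were prepared from cycloheximide lysates with RNase I and monosome isolation, per the labels' protocols, which also describe adapters carrying randomized positions. The molecule is labelled as polyA RNA. The submitters' processing notes name Bowtie and hg38. For counting, annotation, strand and duplicate removal, the method is not given in the sources used here. The deposited table holds whole-number counts per transcript, with its header shifted by 1 cell. Counts were fitted across all rows in R 4.3.3 with edgeR 4.0.16 (TMM, filterByExpr with a minimum count of 10, quasi-likelihood test, Benjamini-Hochberg threshold 0.05, genotype as the only term), and with DESeq2 1.42.0 as an alternative. CPM use TMM-scaled totals. The SE is the log2 fold change divided by the square root of F, and intervals use its degrees of freedom. Coding lengths come from GENCODE 29. Sequences come from RefSeq (GRCh38.p14) and GENCODE 29, and all 8 genes matched. The procedure was run on simulated data in which most genes did not change. That run does not cover a setting where 60.0% of genes are called. The genes and lists were chosen with earlier results of these data known. Genes named beyond the 8 and ZCCHC4 are, per list and direction, up to 2 called genes with the smallest adjusted p. Exceptions are markers, genes named because 2 lists hold them, and the genes that the text says were picked from their values. One gene was left out of the lists and is not reported here.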

Additional observations from a re-analysis of the deposited data

How the results depend on the processing

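TRIB3, CEBPB, ATF5, SESN2, ATF3 and DDIT4 kept their direction and their call in all 14 alternatives (RLE, upper quartile or total scaling, DESeq2, no filter or a mean count of at least 50, each library left out, a replicate block, thinning to the smallest library, and similar libraries summed, that is both wild-type libraries and knockout replicates 1 and 3). TRIB3 ranged from -4.12 to -3.77 on the log2 scale, CEBPB from -2.86 to -2.43, ATF5 from -2.36 to -2.08, SESN2 from -1.45 to -1.13, ATF3 from -0.78 to -0.49 and DDIT4 from 0.72 to 1.01. DDIT3 kept its direction, from -1.19 to -0.48 over the fits without 1 library, but lost its call with DESeq2 (-0.90, adjusted p = 0.0763), with the replicate block (-0.82, 0.0614) and with similar libraries summed (-0.92, 0.0769), and its mean count was under 50. VLDLR, never past the test, changed sign without a filter (0.011) and ranged from -0.16 to 0.11 over the fits without 1 library. Its lowest value came with library totals (-0.25, edgeR adjusted p = 0.0940). With that scaling the knockout levels stood apart from the wild-type levels for all 8 genes, VLDLR included. The median of the 8 genes was -1.28 with library totals and -1.30 at a mean count of at least 50, where DDIT3 is not tested. Of 126 tested genes in all pathway lists, 62 fell and 22 rose (29.8% and 30.2% of all tested genes did). The rises numbered 11 with library totals, 12 with libraries summed and 11 to 29 without 1 library, the fewest without wild-type replicates 2 (11) and 1 (12) and the most without knockout replicate 2 (29). With 1 wild-type library left, it is assumed to vary like the knockout libraries. Whether replicate numbers pair the samples could not be told. Deviations of same-numbered libraries correlated at -0.07 for both numbers, with only 2 shared numbers. With 2 wild-type libraries the deviations of 1 mirror those of the other, so these are not separate checks. Apart from DDIT3, the block changed no call among the 8 genes. Depth limits DDIT3 most, with 13 counts in a wild-type library.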
